A study of Mus musculus with 6 samples.

Results

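Remote intergenic elements are the open regions of the genome that lie in gene deserts, more than 50 kb from any protein-coding gene. Of the 24605 regions in the deposited ATAC-seq count matrix (mouse build mm10), 1646 overlapped no protein-coding gene span of the RefSeq annotation and lay more than 50 kb from the nearest protein-coding gene end, which is 6.69% of all regions. The choice used position only and no count. The cells were WT mouse CD8+ T cells taken from pancreas, spleen and lymph nodes. Palmitate, a saturated fatty acid, was given at 100 µM for 48 hours in the Palmitate group (3 libraries), and the Control group (3 libraries) was labelled as control. Each library was made from 50000 sorted cells, and the labels' treatment text names palmitate for both groups, so the groups follow the treatment label alone. The labels do not say the strain, age or sex, the control's vehicle, or whether the 3 libraries of a group are separate mice or cultures. Where they are not, the spread behind each p-value is technical.

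In ATAC-seq a transposase cuts accessible DNA, and the number of reads in a region measures how open it is in the cell population. Far from genes, open regions are mostly candidate enhancers, which act on promoters over long distances through looping, together with sites of the insulator protein CTCF and the starts of long noncoding RNAs. Genes for transcription factors that set T cell fate often stand beside wide deserts that hold many such elements. Nearness to a gene does not show that an element acts on it, so the genes named here serve as landmarks.

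The members lay a median of 108.56 kb and up to 1411.63 kb from the nearest protein-coding gene, with 890 beyond 100 kb and 55 beyond 500 kb. They were spread over 550 deserts, each the stretch between 2 neighbouring protein-coding genes. Of these deserts, 228 held a lone member and 98 held at least 5. Long noncoding RNA genes were frequent in these stretches: 65 members held an annotated long noncoding RNA start, 432 more lay within such a gene, and 1149 touched none. For 24 members the name gene desert did not hold, since they lay within 50 kb of immunoglobulin or T cell receptor gene segments, which the annotation does not class as protein-coding genes. These 24 were set apart after their positions were seen, and the other 1622 are described beside them.

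At the limit itself, the 3 members just inside lay 50.143, 50.179 and 50.254 kb from Rflna, Lrrc74a and Vmn2r99. The 3 intergenic regions just outside it lay 49.992, 49.968 and 49.949 kb from Zfand6, Gm30733 and Icos. In the order of their distance, log2 fold changes (Palmitate over Control) were -0.43, 0.03 and 0.25 inside the limit, and -0.75, -0.25 and -0.94 outside it.

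Some members coincide with noncoding RNA starts, and only the DNA around such starts could be printed here. The windows below are the RefSeq stretches from 250 bases before to 50 bases after the start, on GRCm38.p6 (the assembly of mm10), 5′ to 3′ along the transcript. A window can reach past its member: that of Gm36496 runs to 25191094, while the member ends at 25190906. Its letters are thus those of the start window and not of the member alone. Gm38326 and Gm36496 start in members that were less open in Palmitate libraries, and Dleu2 and D130051D11Rik start in members that were more open. Capitals mark matches, on either strand, to the core letters of ETS factors (ACTTCC), RUNX factors (TGTGGT) and AP-1 (TGANTCA), families that bind many T cell enhancers.
Gm38326, chr3:60788111-60788410, plus strand: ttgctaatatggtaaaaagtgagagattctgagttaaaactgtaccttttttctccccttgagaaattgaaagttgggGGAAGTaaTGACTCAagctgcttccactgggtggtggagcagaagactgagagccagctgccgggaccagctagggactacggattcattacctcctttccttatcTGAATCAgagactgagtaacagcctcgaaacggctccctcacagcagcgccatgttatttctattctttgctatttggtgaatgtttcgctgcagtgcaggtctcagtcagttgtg
Gm36496, chr12:25190795-25191094, minus strand: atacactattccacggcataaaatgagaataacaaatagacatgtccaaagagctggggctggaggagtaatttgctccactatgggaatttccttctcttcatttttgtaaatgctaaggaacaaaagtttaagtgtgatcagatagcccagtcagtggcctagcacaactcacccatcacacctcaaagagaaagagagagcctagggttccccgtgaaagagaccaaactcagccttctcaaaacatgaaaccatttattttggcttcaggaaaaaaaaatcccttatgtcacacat
Dleu2, chr14:61682324-61682623, minus strand: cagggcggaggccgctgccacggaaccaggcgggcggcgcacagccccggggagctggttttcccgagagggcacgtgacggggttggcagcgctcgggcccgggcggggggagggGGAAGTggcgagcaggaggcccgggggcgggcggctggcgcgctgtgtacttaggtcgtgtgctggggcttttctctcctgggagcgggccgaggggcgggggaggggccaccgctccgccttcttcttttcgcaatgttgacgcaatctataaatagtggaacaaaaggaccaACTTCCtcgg
D130051D11Rik, chr15:85634346-85634645, plus strand: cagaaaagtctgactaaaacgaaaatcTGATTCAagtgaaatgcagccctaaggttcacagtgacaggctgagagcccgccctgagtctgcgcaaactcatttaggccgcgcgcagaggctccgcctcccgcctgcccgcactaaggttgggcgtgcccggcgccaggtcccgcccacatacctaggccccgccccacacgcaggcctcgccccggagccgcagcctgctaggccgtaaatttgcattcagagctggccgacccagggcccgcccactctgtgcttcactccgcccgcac

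The windows differed in base composition. GC content was 63.7% with 23 CpG pairs at D130051D11Rik and 69.0% with 29 CpG pairs at Dleu2, against 46.3% with 6 CpG pairs at Gm38326 and 41.0% with 2 CpG pairs at Gm36496. Over all members with a start, GC was 63.7% to 70.7% in the 4 windows of members called higher. It was 41.0% to 58.7% in the 8 windows of members called lower. The 63 windows of members not called had 41.0% to 79.3%, which spans both ranges. The 32851 windows of the whole annotation had a median of 52.7%. AP-1 letters occurred in 18 of the 75 windows whose RNA start lies in a member (24.0%) and in 7.81% of all windows. RUNX letters occurred in 28 of the 75 (37.3%) and in 16.8% of all windows, ETS letters in 32.0% and 23.8%, and the CTCF letters AGGNGGC in 20% and 29.4%. The RUNX and AP-1 shares were thus above those of promoters in general, the ETS share less so, and the CTCF share was below. The 75 windows come from 65 members and lie in regions open in these cells, whereas all windows take in every annotated start. Starts in other open regions were not compared. A match is a run of letters in a window and does not show binding.

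Depth was similar in both groups. The matrix held 2614890, 3089230 and 2720569 counts in the Palmitate libraries and 2219136, 2855574 and 2852087 counts in the Control libraries. Control library 2 stood apart: over the members, its chi-square per degree of freedom was 2.499 and 2.59 against the other Control libraries, while all other pairs within a group lay between 1.17 and 1.51. Gene-end regions of all 8 CD8 T cell markers were open, and none of the 5 B cell or 2 NK cell markers had a gene-end region in the matrix. Of the 5 myeloid markers, Itgam alone had such a region, at 9.85 to 13.0 CPM (counts scaled to library size) in Palmitate libraries and 5.32 to 7.14 CPM in Control libraries, and it was called higher. Zbtb7b, 1 of 2 CD4 markers, was called higher as well. Of the 4 acinar markers, Cela1 alone had a region, with no call. Whether other cells had a part in the results that follow was not tested.

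Remote elements were weakly open as a class, as were other regions away from gene ends. Median CPM (scaled by the effective library size, with TMM factors) was 9.22 in Palmitate and 12.1 in Control libraries over the members, and 17.9 and 20.01 over all regions. Per kilobase of region the mean over the 6 libraries had a median of 30.5 CPM among members and 44.8 CPM among all regions. They were also narrower, at a median of 362 bases against 443. Fewer of them recurred between libraries, with 40.9% of members and 60.0% of all regions listed as a peak in all 6 libraries. Nearer intergenic regions (at most 50 kb from a gene) were close to the members, at 33.9 CPM per kilobase, 369 bases and 45.7%. So were regions inside genes, at 35.5 CPM per kilobase, 371 bases and 45.0%. Gene-end regions stood apart, at 81.4 CPM per kilobase, 562 bases and 84.5%. The median member held 24 to 27 reads in Palmitate libraries and 27 to 37 reads in Control libraries, so small differences at a lone member were not detectable at this depth.

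The remote class took a smaller part of the matrix counts in the Palmitate libraries, a fall that nearer intergenic regions largely shared, as described below. It held 2.43%, 2.33% and 2.39% of the counts in the Palmitate libraries, against 2.92%, 3.09% and 2.91% in the Control libraries. The groups did not overlap, and the exact (Clopper-Pearson) 95% interval of each share was at most 0.0443 percentage points wide, for counting error only. Means were 2.39 ± 0.0501% in Palmitate and 2.97 ± 0.102% in Control libraries (SD, n = 3 each), a ratio of 0.802. The exact permutation test gave p = 0.1, two-sided, the smallest that 3 against 3 libraries allow. Here and in every result on these bulk libraries, fewer cells with an open element and less opening per cell cannot be told apart.

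Counts in the remote class were also lower relative to those of nearer intergenic regions, the 4684 regions outside genes that lay more than 1 kb and at most 50 kb from a gene. The ratio of summed counts was 0.273, 0.266 and 0.270 in Palmitate libraries, against 0.283, 0.299 and 0.286 in Control libraries. All 3 Palmitate values lay below all 3 Control values, with means of 0.269 ± 0.00359 and 0.289 ± 0.00834 (SD, n = 3 each; exact permutation p = 0.1, two-sided, the smallest possible). Palmitate over Control, these means had a ratio of 0.932, against 0.802 for the share of all counts. Much of the fall in that share was thus common to both intergenic classes. Peak lists, which the authors called per library, showed the groups closer together. Remote positions made up 5.98%, 6.19% and 6.63% of listed peaks in Palmitate libraries, against 6.40%, 7.26% and 7.19% in Control libraries. Palmitate library 3 lay above Control library 1, and the exact permutation test gave p = 0.2 (two-sided).

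**Figure D1:**
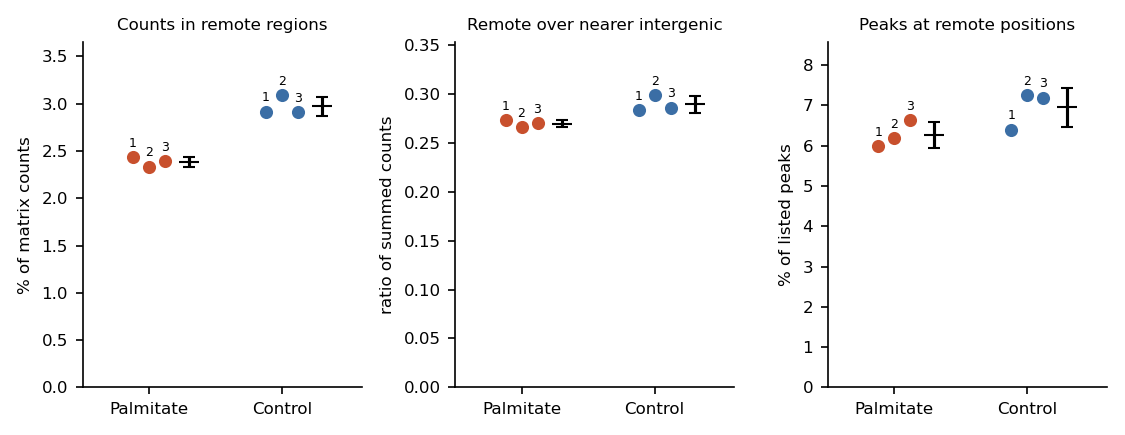
Share of matrix counts in remote regions (left), ratio of summed counts in remote over nearer intergenic regions (middle) and share of listed peaks at remote positions (right), per library, with the mean and SD beside the points and replicate numbers above them. The 3 Palmitate libraries lie at 2.33% to 2.43% of counts, below the Control libraries at 2.91% to 3.09%, while the peak shares overlap.

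Region by region, 1606 members passed the filter on low counts and 40 did not. With edgeR's quasi-likelihood test on TMM-scaled counts at a Benjamini-Hochberg adjusted p of 0.05, 329 members (20.5%) were called lower in Palmitate libraries, 21 (1.31%) were called higher and 1256 were not called. Over all 24316 regions tested, 12.7% were called lower and 11.9% higher, 24.6% in all. So the members' share of lower calls was above that of all regions and their share of higher calls far below it. Gene-end regions weigh on that comparison: of 9408 tested, 232 were called lower and 2355 higher. The median log2 fold change of the members was -0.30, against -0.05 over all regions, -0.23 over nearer intergenic regions, -0.24 over regions inside genes and 0.14 over gene-end regions. Negative values made up 1222 of the 1606 (76.1%), against 54.3% of all regions. Without the count filter all 1646 members entered the test, and 325 were called lower and 21 higher. All 3 Palmitate libraries lay below all 3 Control libraries at 512 members (31.9%, against 21% of all regions) and above them at 58 (3.61%, against 17.9%). Nearer intergenic regions came between, with 17.6% called lower and 3.13% higher. Regions inside genes had 19.6% called lower, close to the members' 20.5%, and 4.3% higher. The excess of lower calls over all regions was thus largely shared by regions away from gene ends.

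Counts of calls varied with the libraries used. Without Control library 2, which stood apart, 375 members were called lower (23.1%, against 13.9% of all regions) and 39 higher (2.41%, against 11.4%). Without Control library 3, 196 were called lower (12.1%, against 7.68%), and without Palmitate library 3, 213 (13.0%, against 7.82%). With Palmitate library 2 left out, only 10 were called higher (0.614%, against 8.43%). Shares over all regions thus moved as well.

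How open a region was moved with its fold change across the whole matrix. The median log2 fold change was -0.51 in the weakest quintile of all regions by mean CPM over the 6 libraries and 0.23 in the strongest, and 582 of the 1606 tested members fell in the weakest quintile but only 47 in the strongest. Within quintiles, the share of members called lower was 20.6%, 22.9%, 20.5%, 16.9% and 8.51%, weakest to strongest, against 23.7%, 17.5%, 14.4%, 6.44% and 1.17% of all regions. In the weakest quintile the members' share was thus below that of all regions, and in the other quintiles it was above. Regions inside genes stood at 27.5%, 19.6%, 19.8%, 12.1% and 4.52%. The members were below these too in the weakest quintile and above them in the others. Higher calls were 0.515%, 0.897%, 0.548%, 1.81% and 19.1% of members, against 0.617%, 0.781%, 1.44%, 6.62% and 50.1% of all regions.

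A fit with trended offsets, which for each library remove the part of the log count that follows mean abundance, called fewer members. It called 118 lower (7.35%) and 30 higher (1.87%), against 4.4% lower and 2.12% higher over all regions. The members' median log2 fold change was -0.05. Lower calls made up 5.6% of nearer intergenic regions and 6.38% of regions inside genes in this fit. Of the 118, 113 were also called lower with TMM factors, 11 of the 30 were also called higher, and no member was called in opposite directions. Under these offsets the share of members called lower was 2.92%, 6.28%, 10.96%, 14.5% and 19.1% from the weakest to the strongest quintile, the top quintile holding 47 members. All regions stood at 2.84%, 4.36%, 6.11%, 4.98% and 3.74%, and nearer intergenic regions at 2.32%, 4.50%, 6.75%, 9.79% and 12.2%. The stronger a remote element, the more often it was called lower in this fit.

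**Figure D2:**
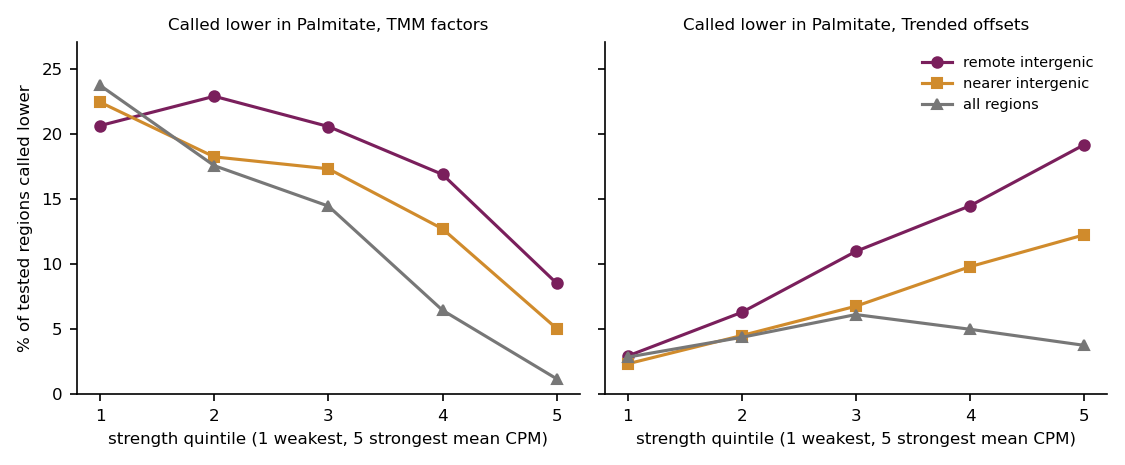
Percent of tested regions called lower in Palmitate libraries, by quintile of mean CPM, for remote intergenic regions (circles), nearer intergenic regions (squares) and all regions (triangles), with TMM factors (left) and trended offsets (right). With TMM factors the remote line falls to 8.51% in the strongest quintile, where all regions reach 1.17%; with trended offsets it climbs to 19.1%, where all regions reach 3.74%.

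Members listed in all 6 libraries gave a like picture. Of these 674, a separate fit called 154 lower (22.8%, against 9.9% of all regions listed in all 6) and 8 higher (1.19%, against 9.32%). The median was -0.27. In that fit 18.2% of nearer intergenic regions and 18.4% of regions inside genes were called lower. Presence in the lists differed between the groups. Control lists alone held 305 members, of which 114 were called lower and 0 higher (edgeR, adjusted p of 0.05), and Palmitate lists alone held 32, of which 0 were called lower and 4 higher. Control lists were also longer as a whole, with 22359, 26850 and 27122 peaks, against 20201, 21502 and 21011 in Palmitate lists. The same split was not counted over all regions, so it is not a result about remote regions. Since the lists come from the same reads as the counts, the figures on lists are a description.

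Shares of lower calls were alike up to 500 kb from genes. Called lower were 18.6% of the 742 tested members at 50 to 100 kb, 22.2% of the 528 at 100 to 200 kb, 20.8% of the 283 at 200 to 500 kb and 28.3% of the 53 beyond 500 kb. With trended offsets the shares were 7.14%, 7.39%, 7.77% and 7.55%, which is flat. The farthest member of all, chr1:101902229-101903006, lay 1411.63 kb from Cntnap5b, a gene of neuronal cell adhesion, and had 12.3 ± 2.03 CPM in Palmitate and 7.97 ± 2.94 CPM in Control libraries (SD, n = 3 each; log2 fold change 0.61, adjusted p 0.105). Of the 5 farthest, 3 were called lower: chr2:46370922-46371411, 1253.48 kb from Zeb2 (17.9 and 29.7 CPM in Palmitate and Control), chr2:8865480-8865812, 991.266 kb from Gata3 (7.92 and 18.7 CPM), and chr12:114990941-114991315 among immunoglobulin heavy-chain segments (5.99 and 14.4 CPM). Kcnt2's element at 1283.98 kb was near its Control level, with 5.50 and 4.89 CPM.

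Among single elements, the fall with the smallest p was at chr2:17845147-17846042, 110.198 kb from Nebl, which encodes an actin-binding muscle protein. It had 21.3, 21.1 and 20.7 CPM in Palmitate libraries, against 54.5, 40.9 and 54.4 CPM in Control libraries. The groups were far apart, and the region fell by 1.24 ± 0.152 on the log2 scale (SE; adjusted p of 1.76e-06 by edgeR). Next came chr13:51935886-51936877, 87.411 kb from Gadd45g, a stress-induced activator of MAP kinase signalling. Its values were 34.3, 36.7 and 38.0 CPM in Palmitate libraries, against 89.3, 53.2 and 88.1 CPM in Control libraries. Control library 2 was the lowest of its group here, as at the Nebl element, yet stayed above every Palmitate library (log2 fold change -1.07 ± 0.144, adjusted p 5.77e-06).

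The desert between Cd83, a surface protein of activated lymphocytes, and Jarid2, a cofactor of Polycomb repressive complex 2, held 2 of the 10 falls with the smallest p. At chr13:44320934-44321572, 409.202 kb from Jarid2, the Palmitate libraries had 11.8, 15.6 and 13.8 CPM, against 49.7, 24.3 and 41.1 CPM in the Control libraries. At chr13:44249069-44249553, 445.936 kb from Cd83, they had 7.49, 5.10 and 4.99 CPM, against 19.2, 15.97 and 18.4 CPM. Both lay well clear of the Control range, with log2 fold changes of -1.45 and -1.602 (adjusted p 1.34e-05 and 4.34e-05).

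Zmiz1 encodes a coactivator of Notch1 in T cell development, and chr14:25189236-25189820, in the noncoding gene Gm32307 and 268.055 kb from Zmiz1, had 16.2, 17.3 and 15.7 CPM in Palmitate libraries, against 41.0, 34.3 and 40.1 CPM in Control libraries. Bcat1 encodes the cytosolic branched-chain amino acid transaminase, and chr6:144942754-144943220, 50.615 kb away, had 9.07, 7.48 and 8.05 CPM, against 26.6, 21.0 and 22.4 CPM. Neither pair of groups overlapped, and the log2 fold changes were -1.22 and -1.499 (adjusted p 5.86e-06 and 1.81e-05). Elements 64.539 kb from Clvs1, a gene of lysosome formation, and 80.23 kb from Trib1, a pseudokinase that steers protein degradation, had log2 fold changes of -1.80 and -1.15 (adjusted p 5.19e-05 and 6.74e-05). The other 2 of the 10, near Myc and Klf14, are described with their deserts. Each of the 10 was called with every library left out in turn and with trended offsets.

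Gains were few and of mixed strength. By quintile of mean CPM, 3, 4, 2, 3 and 9 members were called higher, weakest to strongest. The 4 gains with the smallest p were strong elements with small changes, and 3 of them held a noncoding RNA start. In the strongest quintile 50.1% of all regions were called higher. D130051D11Rik starts at chr15:85634399-85635088, the most open remote element, 52.578 kb from the ligand gene Wnt7b. It had 397, 445 and 425 CPM in Palmitate libraries, against 336, 339 and 316 CPM in Control libraries. The groups did not overlap (log2 fold change 0.36 ± 0.0596, adjusted p 6.86e-05), but with trended offsets the log2 fold change was -0.01 and the call was lost. Likewise chr7:73618148-73618929, 76.402 kb from the chromatin remodeller Chd2 (260 ± 4.89 CPM in Palmitate and 201 ± 6.97 in Control; SD, n = 3 each), and chr1:7397367-7398442, where Gm26901 starts (254 ± 9.02 and 195 ± 7.49 CPM), rose by 0.38 each with TMM factors, and each had a log2 fold change of 0.08, not called, with trended offsets.

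Of these 4, the element of Dleu2 alone kept its call with trended offsets. The Dleu2 start lies in chr14:61682197-61682794, 69.364 kb from Kcnrg, and in mouse and human the Dleu2 transcript hosts microRNAs that restrain the cell cycle. This element had 104, 111 and 104 CPM in Palmitate libraries, against 72.8, 77.5 and 72.4 CPM in Control libraries. No Control library came near the Palmitate range, and the element rose by 0.51 ± 0.0869 on the log2 scale (SE; adjusted p 7.56e-05) and by 0.33 with trended offsets, called in both. The hosted hairpin of Mir16-1 lies 50.225 kb from the element, and its main product, from RefSeq, is shown with the seed (bases 2 to 8) in capitals.
miR-16-5p: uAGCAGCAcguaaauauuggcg

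A second microRNA cluster lay beside a remote element that was not called. The element chr14:115040236-115041059 ends 2.612 kb before the Mir17 hairpin, the first of the miR-17-92 cluster, which promotes lymphocyte proliferation. It had 95.4, 92.8 and 85.9 CPM in Palmitate libraries, against 86.7, 77.5 and 94.2 CPM in Control libraries. The groups overlapped, with a log2 fold change of 0.09 ± 0.0915 (adjusted p 0.526). The products fall into groups by their seeds, in capitals: miR-17-5p with miR-20a-5p, and miR-19a-3p with miR-19b-3p.
miR-17-5p: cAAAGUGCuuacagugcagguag
miR-20a-5p: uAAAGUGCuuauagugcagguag
miR-19a-3p: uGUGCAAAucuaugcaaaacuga
miR-19b-3p: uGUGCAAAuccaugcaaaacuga
miR-92a-3p: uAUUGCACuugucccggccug

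Weaker gains included 2 that rested on Palmitate library 2. At chr18:10918420-10918688, 99.842 kb from Mib1, a ubiquitin ligase of Notch ligands, the Palmitate libraries had 4.73, 35.7 and 9.97 CPM, against 3.92, 3.33 and 6.80 CPM in the Control libraries. This was the only tested member in which 1 library was at least 3 times every other. At chr1:183979820-183980155, near 1700056E22Rik, they had 6.70, 21.7 and 8.44 CPM, against 3.92, 4.99 and 4.42 CPM. The adjusted p was 0.00232 and 0.003 with all libraries, and 0.292 and 0.172 without Palmitate library 2, the highest of the 6 fits that each leave out a library. Other gains were more even between libraries. Near Btg1, an antiproliferative factor that keeps T cells quiescent, chr10:96370784-96371328 had 93.8 ± 2.09 CPM in Palmitate and 72.5 ± 5.57 CPM in Control libraries (SD, n = 3 each; adjusted p 0.00348), though not called with trended offsets. Near Satb1, which organises T cell chromatin, chr17:51903877-51904259 in the noncoding gene Gm20098 had 27.6, 35.3 and 29.1 CPM in Palmitate libraries, against 16.1, 20.3 and 21.8 CPM in Control libraries. Each Palmitate value exceeded each Control value, and the rise of 0.65 ± 0.174 on the log2 scale (adjusted p 0.00602) was 0.72, still called, with trended offsets, while without Palmitate library 2 it was 0.54 and not called. The rest of the 10 were near Irf2bp2, a corepressor gene (53.5 ± 10.9 CPM in Palmitate and 36.9 ± 0.724 CPM in Control; not called without Palmitate library 3), and at the start of 1700064M15Rik near Efcab11 (70.05 ± 7.71 and 51.9 ± 7.05 CPM; not called with trended offsets).

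**Figure D3:**
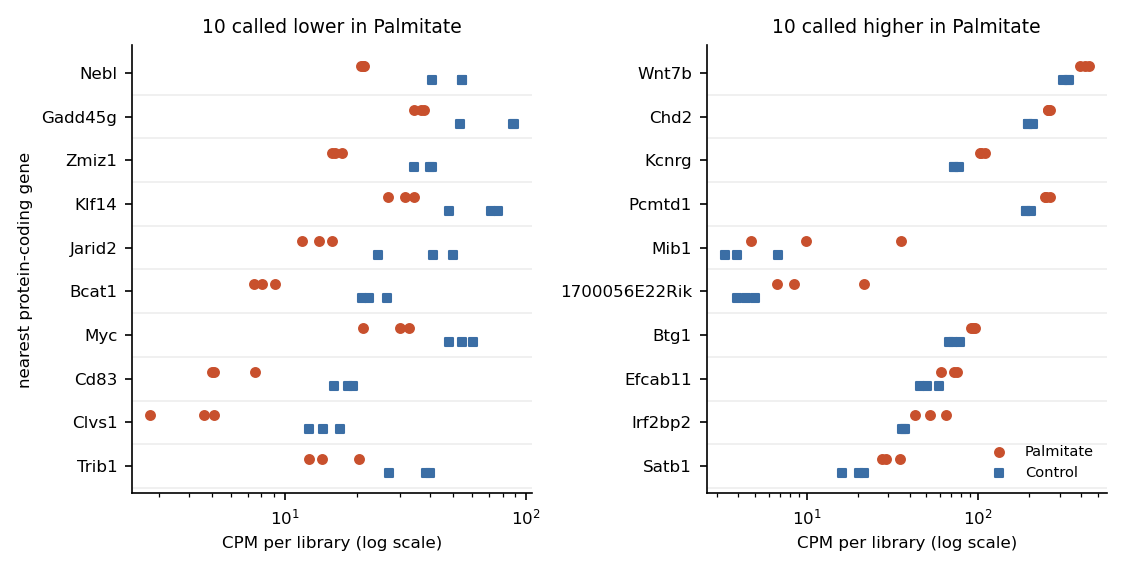
CPM in each library (log scale; Palmitate circles, Control squares) at the 10 remote elements called lower (left) and the 10 called higher (right) with the smallest p, named by their nearest protein-coding gene. All lower elements keep the groups apart, while at Mib1 and 1700056E22Rik a lone Palmitate library, at 35.7 and 21.7 CPM, lies far from the others.

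Of the 5 most open members, only that near B3gnt2, a glycosyltransferase gene, was called lower. The element chr11:22692797-22693692 had 131, 129 and 146 CPM in Palmitate libraries, against 163, 168 and 157 CPM in Control libraries. It fell by 0.27 ± 0.074 on the log2 scale (SE; adjusted p 0.00849) and by 0.51 with trended offsets, but was not called without Palmitate library 2 or by DESeq2. Zfat's element, chr15:68363131-68363647, had 199 ± 4.13 CPM in Palmitate and 171 ± 6.46 CPM in Control libraries (SD, n = 3 each; log2 fold change 0.22, adjusted p 0.0175), and -0.06 on the log2 scale, not called, with trended offsets; it was not called with total counts, nor without Control library 1 or Palmitate library 3.

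Of the 65 members with a noncoding RNA start, 6 were called lower (9.23%, near the 12.7% of all regions) and 4 higher (6.15%, against 11.9%). Called lower were 18.8% of the 425 tested members inside a noncoding gene but off its start and 21.8% of the 1116 tested members with no annotated long noncoding RNA. With trended offsets the lower calls were 3 of 65, 30 of 425 and 85 of 1116, and the differences between these groups were not tested. Median log2 fold changes were -0.0041 at starts, -0.25 inside a noncoding gene and -0.32 outside. Median levels were 15.7, 11.8 and 10.2 CPM in the same order. Among the starts that lost accessibility was Gm36496, 94.357 kb from Id2 at chr12:25190449-25190906. It had 11.4, 13.9 and 15.0 CPM in Palmitate libraries, against 31.4, 19.3 and 29.2 CPM in Control libraries. The Gm38326 start, at chr3:60787933-60788384 and 158.183 kb from the splicing factor gene Mbnl1, had 11.8, 11.2 and 10.7 CPM, against 27.5, 16.6 and 24.8 CPM. At both, Control library 2 was the lowest Control value and still exceeded all Palmitate values, and the log2 fold changes were -0.97 and -1.01 (adjusted p 0.000964 and 0.0011). Starts called lower also included LOC115487176, Gm33078, Gm30214 and Gm31613, of which LOC115487176 alone was called with trended offsets too. Without Control library 3 or Palmitate library 1 the call at Gm30214 was lost, and the call at Gm31613 was kept in only 1 of the 6 fits that leave out a library. Known noncoding RNA genes whose remote starts were not called include Morrbid, Lncpint, Dubr, Lexis1 and Jpx, chosen here after their values were seen.

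The desert with the most members and, by count, the most falls stretches 1785.61 kb between Myc, the growth and proliferation factor that T cells induce on activation, and Gsdmc. By share of members called lower it did not lead, as shown after the crowded deserts. The Myc desert held 31 members, of which 13 were called lower and 0 higher, and 30 of the 31 had a negative log2 fold change with TMM factors. The sign depended in part on the scaling: chr15:62092785-62093117, not called, had -0.22 with TMM factors and 0.09 with trended offsets. Summed over the 31, CPM was 572, 582 and 603 in Palmitate libraries, against 810, 746 and 816 in Control libraries. Every Control sum was well above every Palmitate sum, and with trended offsets 7 of the 13 were still called. The clearest element, chr15:62189647-62190741, lies 199.286 kb from Myc inside Pvt1, a noncoding gene known for enhancers of Myc and for competing with its promoter. It had 32.7, 21.1 and 29.9 CPM in Palmitate libraries, against 60.6, 47.9 and 54.4 CPM in Control libraries (log2 fold change -0.96 ± 0.147, adjusted p 2.35e-05). Also within Pvt1, chr15:62145072-62145484 had 16.6, 12.6 and 15.7 CPM, against 30.1, 34.6 and 26.5 CPM (adjusted p 0.000156).

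Falls in the Myc desert were interleaved with elements near their Control level. Between these Pvt1 elements, chr15:62164706-62165068 had 45.5 CPM in Palmitate and 43.9 CPM in Control libraries. The most open element of the desert, chr15:62169156-62170153, had 130, 128 and 137 CPM in Palmitate libraries, against 149, 137 and 135 CPM in Control libraries. Its groups overlapped, with a log2 fold change of -0.09 (adjusted p 0.423), and -0.32 with trended offsets, where it was called. Farther out, a neighbouring pair at chr15:62457080-62457389 and chr15:62458077-62458417, 466.719 and 467.716 kb from Myc, fell together to 13.8 and 13.7 CPM in Palmitate libraries, against 25.6 and 26.8 CPM in Control libraries. In a farther cluster, the element chr15:62821810-62822002, 831.449 kb from Myc, had 3.94, 2.72 and 3.83 CPM in Palmitate libraries, against 12.2, 7.32 and 12.2 CPM in Control libraries.

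**Figure D4:**
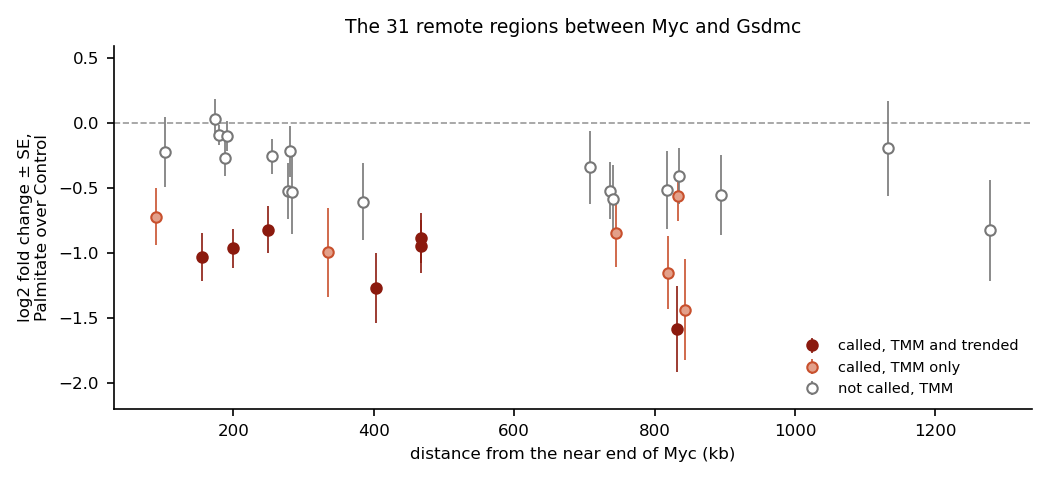
Log2 fold change with its SE (Palmitate over Control, TMM factors) of the 31 remote regions between Myc and Gsdmc against distance from the near end of Myc in kb; dark points were called with TMM factors and trended offsets, pale points with TMM factors only, open points were not called. Called elements between -0.56 and -1.58 are interleaved with elements near 0.

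The Id2 to Rnf144a desert, 1210.7 kb wide, held 21 members. Id2 encodes an inhibitor of E proteins that effector CD8 T cells need. All 21 had negative log2 fold changes with TMM factors, 7 were called lower, and 6 of the 7 were still called with trended offsets. The shared sign did not hold with trended offsets. There, some members that were not called lay above 0, such as chr12:25251451-25251835 at 0.31 and chr12:26187515-26187741 at 0.20. Summed CPM was 324, 316 and 309 in Palmitate libraries, against 448, 396 and 451 in Control libraries. The largest fall, at chr12:26020748-26020968, was on few reads: 1.58, 0.340 and 1.15 CPM in Palmitate libraries, against 8.71, 3.99 and 5.10 CPM in Control libraries (log2 fold change -2.49 ± 0.509, adjusted p 0.000624). A well-measured one, chr12:25438360-25439303, 342.268 kb from Id2, had 23.7, 27.9 and 18.4 CPM, against 39.7, 30.3 and 49.6 CPM (adjusted p 0.00171, not called without Control library 3).

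Gata3 encodes a transcription factor of T cell development and helper fate. In the 2460.74 kb between Celf2 and Gata3, 6 of 16 members were called lower and 0 higher, 3 of them also with trended offsets. Summed CPM was 159 ± 14.8 in Palmitate and 226 ± 13.5 in Control libraries (SD, n = 3 each). The element nearest to Gata3, chr2:9801458-9801854 at 55.224 kb, had 9.07, 11.9 and 10.7 CPM in Palmitate libraries, against 22.7, 15.97 and 26.9 CPM in Control libraries. At 240.509 kb, chr2:9616237-9616569 had 5.52, 5.78 and 2.30 CPM, against 11.8, 10.98 and 14.6 CPM. Both pairs of groups were separate (adjusted p 0.00124 and 0.000955), whereas 4 members of this desert had log2 fold changes between -0.03 and 0.09.

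Bcl2l11 encodes the pro-apoptotic protein BIM, and Morrbid, a noncoding RNA gene in its desert, restrains Bcl2l11 in mouse lymphoid and myeloid cells. Of the 21 members in the 428.654 kb between Bcl2l11 and Spdye4c, 20 were tested and 7 were called lower, 1 of them with trended offsets as well. Summed CPM was 251 ± 23.8 in Palmitate and 321 ± 8.17 in Control libraries. The element called in both fits, chr2:128465411-128465895 in Gm36154, had 7.88, 7.81 and 8.05 CPM in Palmitate libraries, against 23.1, 12.6 and 20.7 CPM in Control libraries. The Morrbid start itself had 9.20 CPM in Palmitate and 6.95 CPM in Control libraries (log2 fold change 0.40, adjusted p 0.357).

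Between Klf14, a zinc finger factor gene, and Mkln1, 6 of 16 members were called lower and 0 higher, 4 of them with trended offsets too. The element chr6:31088197-31088864, 129.207 kb from Klf14, had 34.3, 26.8 and 31.4 CPM in Palmitate libraries, against 76.3, 47.9 and 71.4 CPM in Control libraries (log2 fold change -1.07 ± 0.147, adjusted p 6.84e-06). Within Lncpint, a noncoding RNA gene induced by p53, members went both ways in value. At chr6:31132328-31132638 the Palmitate libraries had 1.58, 3.74 and 2.68 CPM, against 13.1, 8.65 and 11.6 CPM in the Control libraries (adjusted p 0.000103). At chr6:31216381-31216999 they had 89.1, 89.4 and 74.4 CPM, against 61.0, 80.5 and 74.5 CPM, with overlapping groups and no call (adjusted p 0.122).

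Not every crowded desert held many lower calls. Between Foxo1, a factor of naive and memory T cells, and Cog6, 2 of 16 members were called lower and 1 of them also with trended offsets, and summed CPM was 289 ± 21.7 in Palmitate and 346 ± 38.4 in Control libraries (SD, n = 3 each). Outside the 6 deserts with most members, and picked after their values were seen, Eea1 to Btg1 had 0 of 15 called lower and 1 higher, and its summed CPM was 288 ± 9.98 in Palmitate and 276 ± 41.0 in Control libraries. Irf2bp2 to Tomm20 had 0 of 14 called lower and 1 higher, with 549 ± 36.0 and 490 ± 8.56 CPM. Kif2a to Zswim6, also picked after its values were seen, had 8 of 10 called lower and 0 higher, and 2 lower with trended offsets. Its summed CPM was 53.5 ± 7.88 in Palmitate and 110 ± 9.60 in Control libraries. That is a ratio of 0.488, against 0.741 between Myc and Gsdmc. With each library left out in turn, the calls kept every time were 8 of 13 between Myc and Gsdmc, 4 of 7 between Id2 and Rnf144a, 5 of 6 between Celf2 and Gata3, 5 of 7 between Bcl2l11 and Spdye4c, 3 of 6 between Klf14 and Mkln1 and 1 of 2 between Foxo1 and Cog6. In all, 210 of the 550 deserts held a member called lower, 20 held one called higher and 7 held both.

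**Figure D5:**
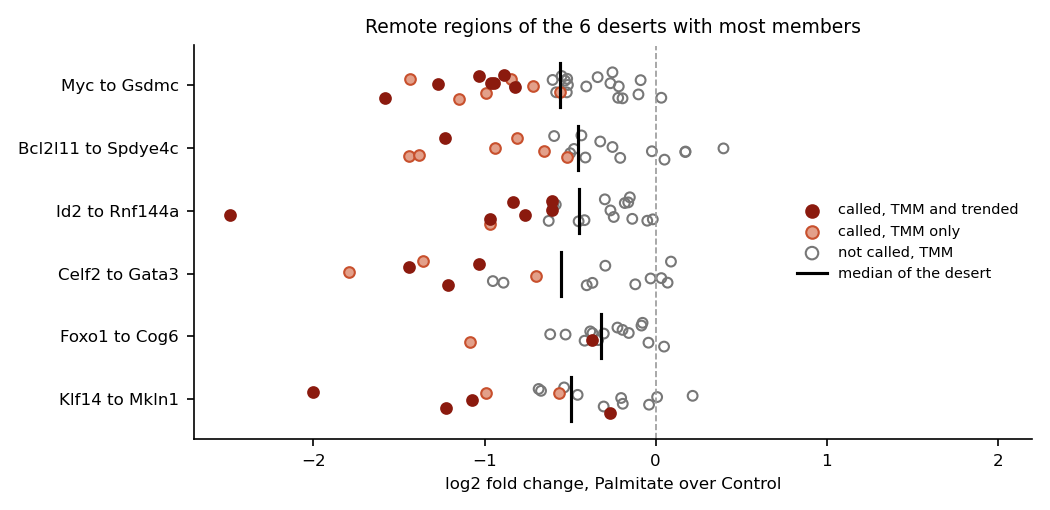
Log2 fold change (Palmitate over Control, TMM factors) of each tested remote region in the 6 deserts with most members, named by their flanking genes; black bars are medians, and fill marks calls (dark with both scalings, pale with TMM factors only). Every called region lies left of 0, and the desert medians run from -0.32 between Foxo1 and Cog6 to -0.56 between Myc and Gsdmc.

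Some landmarks were genes known as T cell regulators, from a list of 56 chosen with earlier results of these data known. Of these, 29 were the nearest protein-coding gene of at least 1 member, 171 members in all. Of 7 housekeeping genes 0 were, and how often genes at large are such landmarks was not tested. Of the 170 tested members beside listed genes, 43 were called lower (25.3%), 2 higher and 125 were not called. Of the other 1436 tested members, 286 were called lower (19.9%) and 19 higher. With trended offsets the counts were 18 lower and 3 higher of the 170, and 100 lower and 27 higher of the 1436. Myc supplied 14 of the 43 falls and Gata3 6, so the list's count leans on 2 genes. Id2 had 4 of 12 members called lower, Satb1 3 of 12 with 1 higher, and Ets1, an early T cell factor gene, 1 of 14. The element 55.273 kb from Zeb2, a factor of terminal effector cells, at chr2:45172715-45173193, had 7.49, 7.14 and 3.83 CPM in Palmitate libraries, against 18.7, 11.3 and 16.3 CPM in Control libraries (adjusted p 0.00108). Cd28 and Cd44, genes of a costimulatory receptor and an adhesion receptor, each had 2 of 2 members called lower, and Runx1 2 of 2 tested. Tgfbr2, the TGF-beta receptor gene, had 0 of 9 called, and Lef1, a stem-like T cell factor gene, had 0 of 7 lower and 1 higher. Such small counts per gene are a description, and members around a gene share its surroundings.

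The 24 members near antigen receptor segments comprised 14 on chromosome 12, 6 on chromosome 14 and 4 on chromosome 6. Called lower were 5 of the 24 and higher 1, and without them 324 of 1582 tested members were lower and 20 higher, so the class result did not rest on them. On chromosome 12, chr12:113362391-113362877, 1.159 kb from the nearest segment, had 17.7, 15.3 and 14.6 CPM in Palmitate libraries, against 29.6, 29.9 and 40.1 CPM in Control libraries. Separate groups and an adjusted p of 7.1e-05 made it the clearest of the 24. The gain, at chr12:113276178-113276766, was on 8.39 ± 2.37 CPM in Palmitate and 4.05 ± 1.03 CPM in Control libraries (SD, n = 3 each; adjusted p 0.0261, and 0.153 without Palmitate library 1, 0.0877 without Control library 1 and 0.0549 without Palmitate library 3). Both were chosen after their values were seen.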

How the data were processed

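ATAC-seq of 3 Palmitate and 3 Control libraries was analysed from the authors' matrix of raw counts in 24605 regions, per the file header; per the submitters' processing notes the build was mm10 and the tools included MACS2 2.2.8, edgeR 3.40.2, Picard 2.23.8, Bowtie2 2.5.1 and Trim Galore 0.6.10, while no label says how reads were shifted or counted. Each library also has the authors' peak list, whose deposited score was used only as a threshold. Coordinates are as in the matrix, whose starts lie 2 bases before the listed peak starts at all 24605 regions. Regions were placed by RefSeq genes of GRCm38.p6 (21900 protein-coding).

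Counts were tested over all 24316 regions kept by filterByExpr with edgeR 4.0.16 (R 4.3.3; quasi-likelihood, TMM, Benjamini-Hochberg 0.05, two-sided). Trended offsets were a loess of log count on mean abundance (span 0.3, pseudocount 0.5). CPM used TMM-scaled library sizes. The replicates' common biological coefficient of variation came to 0.0659. In a test on simulated data for Palmitate against Control over 24316 regions, 16%, 44%, 64% and 92% of regions changed by 1.25-, 1.5-, 2- and 3-fold were found, with 5 false among 113 calls. The simulation changed 50 regions per fold and held no shift that follows mean abundance, unlike these data. Its rates therefore do not describe the calls reported here. The members and lists were chosen with earlier results of these data known. Named regions are the 10 lower and 10 higher calls with the smallest p, the 5 most open, the 5 farthest, members of the 5 most crowded deserts with ties, the 12 smallest p beside listed regulators, those at the 50 kb limit and called noncoding starts. Alternatives were limma-voom (limma 3.58.1), DESeq2 1.42.0, other scalings, filters, distance limits and leaving out each library.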

Additional observations from a re-analysis of the deposited data

How the results depend on the processing

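With total counts as library sizes, the median of all regions moved to -0.16 and that of the members to -0.41. In that fit 439 members were called lower (27.3%, against 17.8% of all regions) and 10 higher (0.623%, against 5.27%). Trended offsets gave 1586 calls over all regions, 118 members lower and a median of -0.051. Within the regions listed in all 6 libraries there were 2838 calls, 154 members lower and 8 higher; trended offsets within those regions, an alternative chosen after seeing the data, gave 906 calls, 74 members lower, 6 higher and a median of -0.091. DESeq2's Wald test gave 3124 calls, 147 members lower (9.15%, against 5.08% of all regions) and 11 higher (0.685%, against 7.76%). At an adjusted p of 0.1, 39 members were higher. Of the 890 members beyond 100 kb from genes, 191 were lower and 8 higher at 0.05. Leaving out a library in turn gave 196 to 375 members lower, 10 to 39 higher, 3997 to 6165 calls over all regions and a median of -0.33 to -0.23; the difference in the share of counts ran from -0.618 to -0.529 percentage points, that in the ratio to nearer regions from -0.0227 to -0.0149, and that in the share of peaks from -0.956 to -0.528 percentage points. With 3 against 2 libraries the exact test cannot go below 0.2.

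Deviations of same-numbered libraries from their group means had correlations of 0.000449, -0.104 and -0.0270, and those of other pairs ran from -0.0671 to 0.0921. Values this small cannot show whether the numbers pair the libraries. With the replicate number as a block, 305 members were lower and 20 higher, with 5533 calls over all regions and a median of -0.29. Direction turned for 4 of the 49 named regions: near Wnt7b to -0.0053 with trended offsets and -0.0015 with these in the regions of all 6 lists, near Zfat to -0.058 in both, near Lrrc74a (not called) to -0.090 with total counts and within -0.10 to 0.15 with a replicate left out (-0.02 without Control replicate 1, -0.10 without Palmitate replicate 2), and near Gm30733 (not called) to 0.30 with trended offsets and within -0.54 to 0.030 with a replicate left out (0.030 without Palmitate replicate 2). The cause was not tested.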
